A study of Saccharomyces cerevisiae with 2 samples.

Results

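Nuclear genes for the mitochondrial respiratory chain and the ATP synthase, with the inhibitor INH1 and the transcriptional activator HAP4, were followed in budding yeast, Saccharomyces cerevisiae, without the phosphatase gene MSG5. The set was a list of 39 genes chosen by function, with earlier results of these data known. It held 4 subunits of succinate dehydrogenase (complex II), 9 of the cytochrome bc1 complex (complex III) and 2 forms of cytochrome c. It also held 9 genes for nuclear subunits of cytochrome c oxidase (complex IV), 13 subunits of the ATP synthase, INH1 and HAP4. Of the 39 genes, 37 had a value in both comparisons of the study, among 5188 genes with a value in either. The ATP synthase subunit genes ATP18 (YML081C-A) and TIM11 (YDR322C-A) had no row in the table and were not analysed here.

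Electrons from NADH and succinate pass through ubiquinone, complex III and cytochrome c to complex IV, which reduces oxygen. Protons pumped on the way drive the ATP synthase, whose F1 head makes ATP and whose membrane part carries the proton flow. Budding yeast ferments glucose even in air and lowers respiratory gene expression while glucose is plentiful. HAP4 encodes the activating and regulated subunit of the Hap2/3/4/5 complex, which binds CCAAT boxes upstream of many respiratory genes, and HAP4 itself is repressed by glucose. MSG5 encodes a dual-specificity phosphatase of mitogen-activated protein kinases in the mating and cell wall pathways.

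The measurements were two-colour arrays of total RNA: the RNAs of a pair carry the dyes Cy3 and Cy5 and compete for each spot. The first comparison set an msg5 deletion strain against wild-type BY4741, a laboratory strain of mating type a, with no pheromone given to either. Both cultures grew in rich glucose medium (YPD) at 24 °C and 200 rpm, were diluted to an optical density of 0.2, then had 2 h 30 min of growth and a further 2 h before collection. The second comparison set the msg5 deletion strain with alpha factor, the pheromone that a cells sense, against the same strain without it. These cultures grew for 4 h after dilution and were collected 90 min later, with alpha factor at 50 mM as the labels write it. Both RNAs of the second comparison therefore lacked MSG5, and a response of wild-type cells to alpha factor was not analysed here. The untreated deletion strain is a side of both comparisons, from cultures with different growth times. The parent strain of the deletion and the number of clones are not stated in the labels.

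Per the labels, 4 arrays, with dyes swapped and RNA from 2 biological samples, lie behind each comparison, and the authors reduced them to 1 log ratio per feature. Values of single arrays were not used here, so no difference below could be tested against replicate error. Precision is limited by the 2 biological samples behind each comparison as well as by the number of arrays. As a rough guide to error, features that stand for the same gene differed by a median of 0.20 on the log2 scale in the deletion comparison (25 genes, at most 0.61) and by 0.29 with alpha factor (24 genes, at most 0.68). The medians of all genes were -0.07 and -0.05. MSG5 had the lowest log2 ratio of 4969 genes in the deletion comparison, -2.51. The direction of the alpha factor values is likely treated over untreated, since the channels are laid out as in the first sample and 7 of 7 pheromone-induced genes lay above 0, from 0.17 for PRM1 to 2.38 for FIG1. The same 7 genes also lay above 0 in the deletion without pheromone, from 0.38 for FUS3 to 3.33 for FIG1. Only FUS3 was lower there than with alpha factor, where it had 0.42. For these genes the untreated deletion strain was thus already above wild type in the first comparison. What part this had in the alpha factor values was not tested. Over 6 genes of a cells, the medians were 0.38 and 0.65. Their values ran from -0.10 for MFA2 to 1.26 for AGA2 in the deletion. With alpha factor they ran from -0.17 for STE6 to 1.35 for AGA2. The 2 measured genes of alpha cells, SAG1 and MF(ALPHA)2, had medians of 0.79 and 0.35, and the part of either list in the results below was not tested. A ratio shows no level, so the mating type itself could not be checked. In whole cultures, fewer cells of a kind and less RNA per cell cannot be told apart.

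The first comparison asked how respiratory transcripts differ when MSG5 is missing. They were higher in the deletion as a set, each by a small amount: 32 of 37 genes lay above 0, where 36.8% of all genes did, and 32 exceeded the median of all genes, where 49.8% do. Their median log2 ratio was 0.19, against -0.07 for all other genes, and their middle values ran from 0.13 to 0.27 (quartiles), above the upper quartile of all genes (0.07). HAP4 was the highest at 0.64, and SDH4, a membrane anchor of succinate dehydrogenase, followed at 0.54.

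Genes past 1.5-fold, a log2 ratio beyond 0.58 in either direction, were counted as higher or lower. Only HAP4 reached this in the deletion, 1 of 37 genes, where 2.84% of all genes did. No member was 1.5-fold lower, where 3.08% of all genes were. The count at 1.5-fold was thus near the background, and the set lay apart from other genes in its median and quartiles, not in its extremes. At 1.2-fold, 10 of 37 members were higher, where 8.96% of all genes were, and no member was lower, where 19% were.

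**Figure D1:**
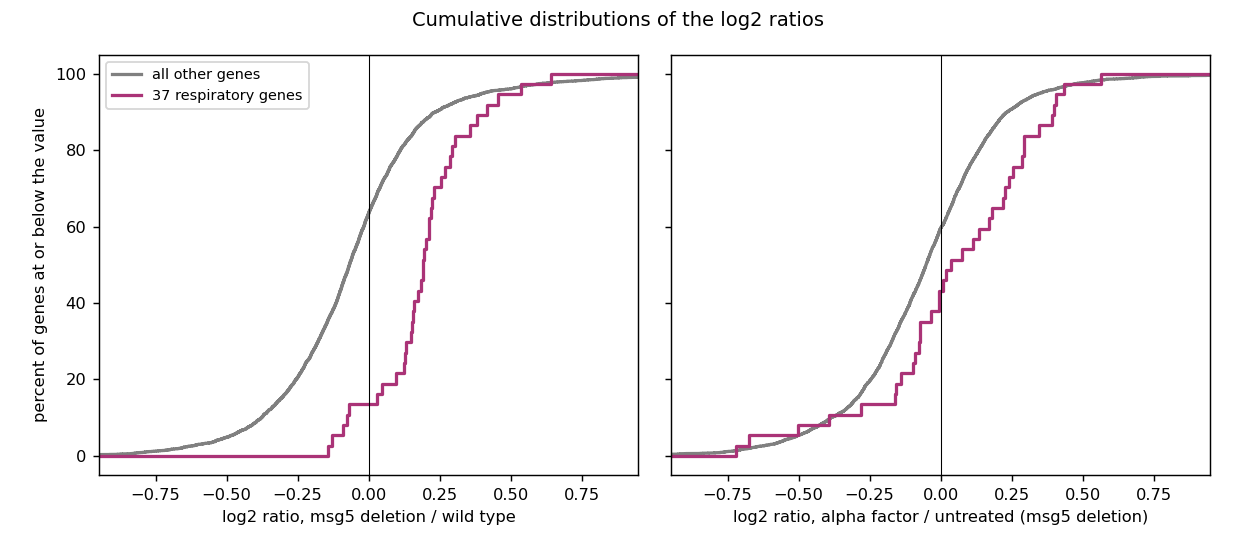
Percent of genes (y axis) at or below each log2 ratio (x axis) for the 37 respiratory genes and for all other genes, in the deletion (left) and with alpha factor (right). On the left the line of the respiratory genes lies to the right of that of other genes, with medians of 0.19 and -0.07; on the right the lines lie closer, with medians of 0.04 and -0.05, and cross at the low end.

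The second comparison asked how the msg5 deletion strain responds to alpha factor. The respiratory genes had no common direction there: 21 of 37 lay above 0, where 40.6% of all genes did, and 24 exceeded the median of all genes, where 50% do. Their median was 0.04, against -0.05 for all other genes, but their values spread from -0.72 for HAP4 to 0.56 for SDH4. Genes for small subunits of complexes III and IV and of the ATP synthase were mostly above 0, and genes for the large subunits SDH1, QCR2, ATP1 and ATP2 were below it with HAP4.

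At 1.5-fold, HAP4 and the complex III core subunit gene QCR2 were lower with alpha factor, 2 of 37 genes, where 3.15% of all genes were. No member was 1.5-fold higher, where 1.46% of all genes were. At 1.2-fold, 9 members were higher, where 8.77% of all genes were, and 5 were lower, where 18.5% were. Turning the sign of these values, whose direction is only likely, would reverse each of these statements.

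**Figure D2:**
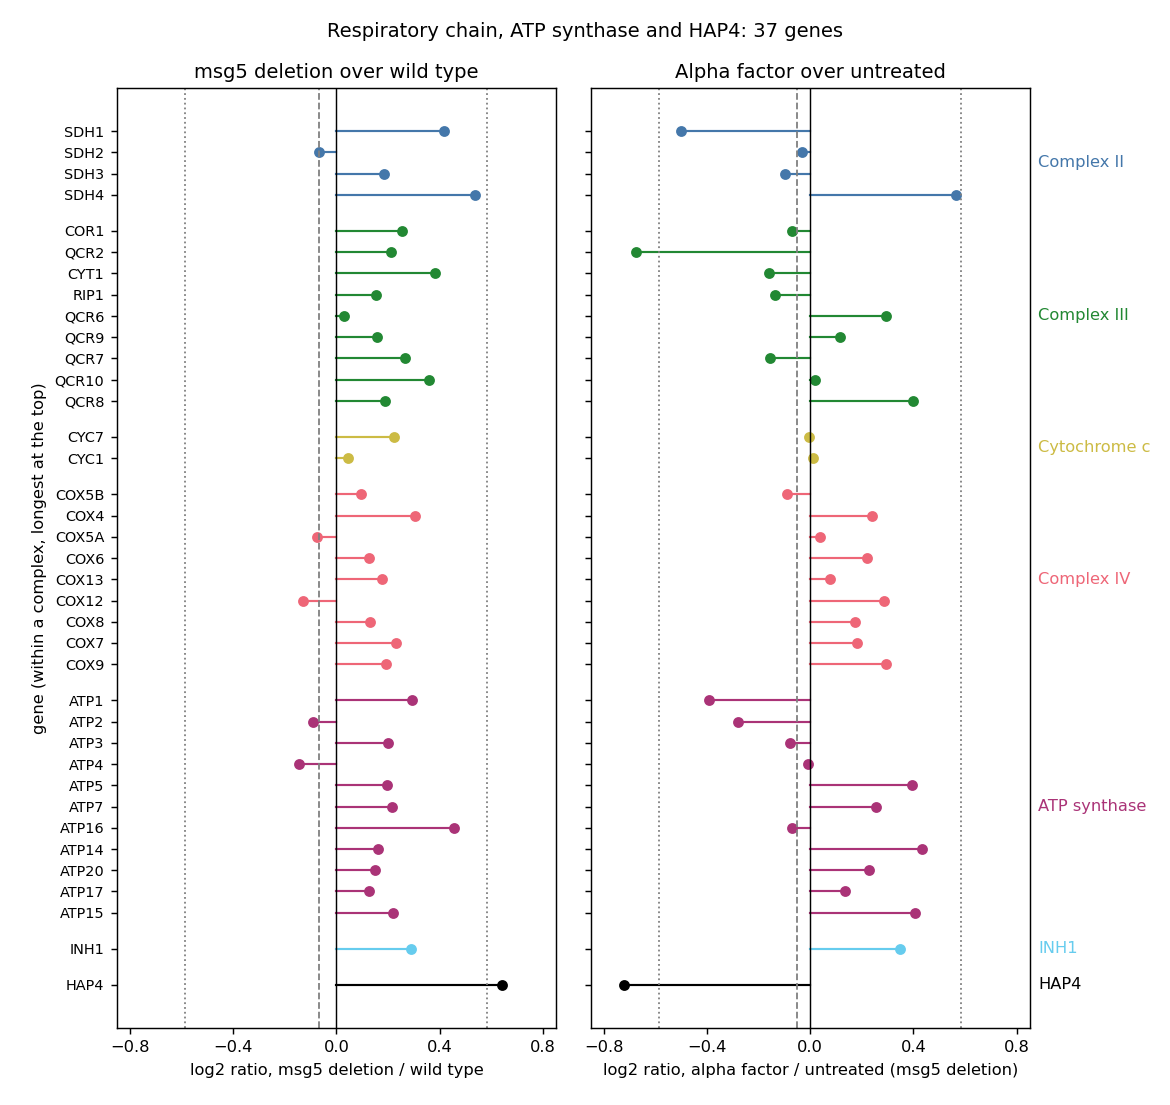
Log2 ratio (x axis) of each of the 37 measured genes (y axis, grouped by complex with the longest gene at the top) in the deletion (left) and with alpha factor (right). Each point is the deposited value of 1 gene, with no error bar; the dashed line marks the median of all genes and the dotted lines 1.5-fold. On the left 32 points lie above 0, and on the right the longest genes of complexes II and III and of the ATP synthase lie below 0 and most short ones above it.

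HAP4 (YKL109W) stood at opposite ends in the 2 comparisons. In the deletion its log2 ratio of 0.64 was a 1.56-fold higher level than in wild type, and 116 of 4969 genes were as high or higher. With alpha factor its value of -0.72 was a 1.65-fold lower level, and 65 of 4597 genes were as low or lower. Both sizes slightly exceed the largest difference seen between features of the same gene (0.61 and 0.68). Those differences come from only 25 and 24 genes on the same arrays and hold no variation between cultures, so this is no test of HAP4. After subtraction of the median of genes of like length, the alpha factor value was -0.58, just short of 1.5-fold. HAP2, HAP3 and HAP5, which encode the DNA-binding partners of HAP4 and were singled out after their values were seen, had values of 0.08, -0.19 and -0.01 in the deletion and 0.20, 0.06 and -0.02 with alpha factor. None of the 3 lay farther from 0 than the median difference between features of 1 gene.

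Complex II, succinate dehydrogenase, links the tricarboxylic acid cycle to the chain. SDH1 (YKL148C), the flavoprotein that oxidises succinate, had a log2 ratio of 0.42 in the deletion and -0.50 with alpha factor. SDH2 (YLL041C), the iron-sulfur subunit, had -0.07 and -0.03. SDH3 (YKL141W) and SDH4 (YDR178W) encode the membrane anchors that pass electrons to ubiquinone. SDH3 had 0.19 and -0.10, whereas SDH4 was high in both, at 0.54 and 0.56, or 1.45-fold and 1.48-fold. SDH1 and SDH4 were thus the high subunits in the deletion, and with alpha factor they lay at opposite ends of the complex. Genes of similar sequence exist for 3 of the subunits, and what part their RNA had in these spots was not tested. Of these, SHH3, a paralog of SDH3, had -0.27 and 0.45, SHH4, a paralog of SDH4, had 0.11 in the deletion alone, and SDH9, a paralog of SDH1, had no value.

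In complex III, which passes electrons from ubiquinol to cytochrome c, all 9 genes lay above 0 in the deletion, where 36.8% of all genes did. Their values ran from 0.03 to 0.38 with a median of 0.21. CYT1 (YOR065W), cytochrome c1, was the highest at 0.38, followed by the small subunit gene QCR10 (YHR001W-A) at 0.36 and QCR7 (YDR529C), another small subunit, at 0.27. The core subunit genes COR1 (YBL045C) and QCR2 (YPR191W) had 0.25 and 0.21, and RIP1 (YEL024W), the Rieske iron-sulfur protein, had 0.15. The small subunit genes QCR8 (YJL166W), QCR9 (YGR183C) and QCR6 (YFR033C) had 0.19, 0.16 and 0.03. Core, redox and small subunits had similar values in this comparison, with medians of 0.23, 0.27 and 0.19.

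With alpha factor the values of the same subunits spread more widely. QCR2 was at -0.68, a 1.60-fold lower level, with 91 of 4597 genes as low or lower, and its partner COR1 was at -0.07. The redox subunit genes CYT1 and RIP1 were at -0.16 and -0.14. Of the 5 small subunit genes, 4 lay above 0: QCR8 was at 0.40, QCR6 at 0.29, QCR9 at 0.12 and QCR10 at 0.02, while QCR7 was at -0.16. The small subunits had a median of 0.12, and none of the core and redox subunits lay above 0, where 40.6% of all genes did. The small subunit genes are of 285 to 444 nt, and the core and redox genes of 648 to 1374 nt. Role and gene length therefore cannot be told apart here. Of other genes of up to 471 nt, 64.8% lay above 0.

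Cytochrome c carries electrons between complexes III and IV and is made in an aerobic form, CYC1 (YJR048W), and a form favoured at low oxygen, CYC7 (YEL039C). CYC1 had 0.05 in the deletion and 0.01 with alpha factor, and CYC7 had 0.22 and -0.00. A second such pair lies in complex IV, where COX5A (YNL052W) is the aerobic and COX5B (YIL111W) the hypoxic form of the same subunit. COX5A had -0.08 in the deletion and 0.04 with alpha factor, and COX5B had 0.10 and -0.09. In the deletion both hypoxic forms had the higher value of their pair, by less than the median difference between features of 1 gene. With alpha factor both hypoxic forms had the lower value of their pair. ROX1, the repressor of hypoxic genes, had -0.20 in the deletion and -0.27 with alpha factor. ANB1, another hypoxic gene, looked up after the values had been seen, had -0.62 and 0.11. What part ROX1 had in these values was not tested. COX5A is the gene next to MSG5 on its chromosome in the R64 assembly, and was among the 5 respiratory genes below 0 in the deletion.

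The other 7 measured genes of complex IV encode nuclear subunits around a catalytic core that is made in the mitochondrion. In the deletion they had a median of 0.18: COX4 (YGL187C) was at 0.30, COX7 (YMR256C) at 0.23, COX9 (YDL067C) at 0.19, COX13 (YGL191W) at 0.18, COX8 (YLR395C) and COX6 (YHR051W) at 0.13, and COX12 (YLR038C) at -0.13. With alpha factor all 7 lay above 0, where 40.6% of all genes and 64.8% of other genes of up to 471 nt did. Their median was 0.22, and all 7 genes are of up to 468 nt. COX9 and COX12 were at 0.29, COX4 at 0.24, COX6 at 0.22, COX7 at 0.18, COX8 at 0.17 and COX13 at 0.08. After subtraction of the median of genes of like length, they ran from -0.01 for COX13 to 0.20 for COX9. Among complexes II to IV and the ATP synthase, complex IV had the narrowest range with alpha factor, from -0.09 for COX5B to 0.29. Its longest gene is of 544 nt, and those of complexes II and III and the ATP synthase are of 1923, 1374 and 1638 nt. What part length had in this range was not tested. The catalytic subunits COX1, COX2 and COX3 of complex IV, and the mitochondrially encoded subunits of complex III and of the ATP synthase, were not analysed here.

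The F1 head of the ATP synthase holds a catalytic ring of alpha and beta subunits, from ATP1 (YBL099W) and ATP2 (YJR121W). The ring surrounds a stalk of gamma, delta and epsilon subunits, from ATP3 (YBR039W), ATP16 (YDL004W) and ATP15 (YPL271W). In the deletion ATP16 was at 0.46, ATP1 at 0.29, ATP15 at 0.22, ATP3 at 0.20 and ATP2 at -0.09. With alpha factor ATP1 and ATP2 were at -0.39 and -0.28, ATP3 and ATP16 at -0.08 and -0.07, and ATP15 at 0.41. The F1 genes had medians of 0.22 and -0.08, and 1 of 5 lay above 0 with alpha factor, where 40.6% of all genes did.

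Of the 6 measured genes for the stator and the membrane part, 5 lay above 0 with alpha factor, where 40.6% of all genes did. The share was 64.8% for other genes of up to 471 nt and 50.5% for those from 474 to 1038 nt, the lengths that hold these 6 genes. ATP14 (YLR295C) was at 0.43, ATP5 (YDR298C) at 0.39, ATP7 (YKL016C) at 0.26, ATP20 (YPR020W), which takes part in dimer formation, at 0.23, ATP17 (YDR377W) at 0.14 and ATP4 (YPL078C) at -0.01, with a median of 0.24. In the deletion these 6 genes had a median of 0.15, with ATP7 at 0.21, ATP5 at 0.20, ATP14 at 0.16, ATP20 at 0.15, ATP17 at 0.13 and ATP4 at -0.14. INH1 (YDL181W), a small protein that blocks ATP hydrolysis by the enzyme, was above 0 in both comparisons, at 0.29 and 0.35. ATP4 was the lowest of all 37 genes in the deletion. With alpha factor ATP15 was the F1 gene that lay above 0 with most stator and membrane genes. ATP15 is of 189 nt, the other F1 genes of 483 to 1638 nt and the stator and membrane genes of 306 to 735 nt. Role and gene length therefore cannot be told apart in the ATP synthase either.

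**Figure D3:**
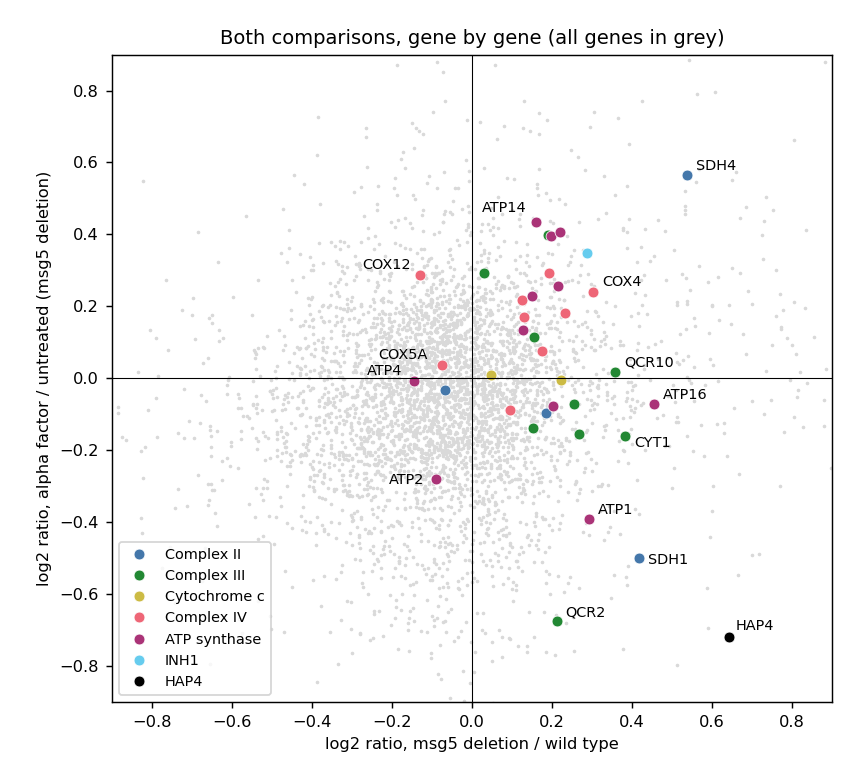
Log2 ratio in the deletion (x axis) and with alpha factor (y axis) for the 37 respiratory genes, coloured by complex, over all genes with both values (grey); genes beyond 0.9 in either direction lie outside the axes. Each point is 1 gene with 1 deposited value per axis. HAP4 lies at 0.64 and -0.72 at the lower right with SDH1, ATP1 and QCR2 above and to its left, and SDH4 lies at 0.54 and 0.56 at the upper right.

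Some members had large values in both comparisons. With the alpha factor values taken as treated over untreated, HAP4 (0.64 and -0.72), SDH1 (0.42 and -0.50) and ATP1 (0.29 and -0.39) lay on opposite sides of 0, and SDH4 (0.54 and 0.56) and INH1 (0.29 and 0.35) lay above 0 in both. With the sign turned, these 5 genes would exchange the 2 patterns. The untreated deletion strain is on opposite sides of the 2 ratios, and whether this bears on opposite values was not tested.

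The division by subunit size with alpha factor went with gene length. Over the 37 genes, which are not independent replicates and share their arrays, Spearman's rho between length and the alpha factor value was -0.68, and in the deletion comparison it was 0.17. Length is the span of the gene in the R64 assembly with introns, from 180 to 1923 nt for these genes, and the lengths of the spotted probes were not used here. The other genes of the table also had lower alpha factor values where they were longer, with a rho of -0.22 over 4560 genes and of -0.30 over the 3512 within the same length range. After the median of genes of like length was subtracted, rho over the members was -0.56.

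The members were then grouped by length, in classes joined from 10 equal groups of all genes after the values had been seen. The 20 members of up to 471 nt had a median alpha factor value of 0.20, against 0.09 for 418 other genes, and 18 of them lay above 0, where 64.8% of the others did. The 11 members from 474 to 1038 nt had a median of -0.07, against 0.00 for 1468 other genes. The 6 members of over 1041 nt, SDH1, HAP4, ATP1, ATP2, COR1 and QCR2, had a median of -0.45, against -0.10 for 2674 others, and all 6 lay below 0, where 68.8% of the others did. By their medians, short members thus lay higher and long members lower than other genes of their class. Of the 20 short members, 6 lay below the median of the others, and the long member COR1, at -0.07, lay above that of its class.

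Subtracting the medians of the length groups left part of this order in place. SDH4 then had the highest alpha factor value, 0.54, followed by ATP5 at 0.37, ATP14 at 0.34, ATP15 at 0.32 and QCR8 at 0.31. At the low end HAP4 and QCR2 stood at -0.58, SDH1 at -0.38, ATP1 at -0.25 and QCR7 at -0.24. No member then reached 1.5-fold, and the members' median differed from that of other genes by -0.01 instead of 0.09. In the deletion comparison the medians of the 3 length classes were 0.17, 0.20 and 0.27, against -0.07, -0.08 and -0.06 for other genes, so the members lay higher in each class.

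**Figure D4:**
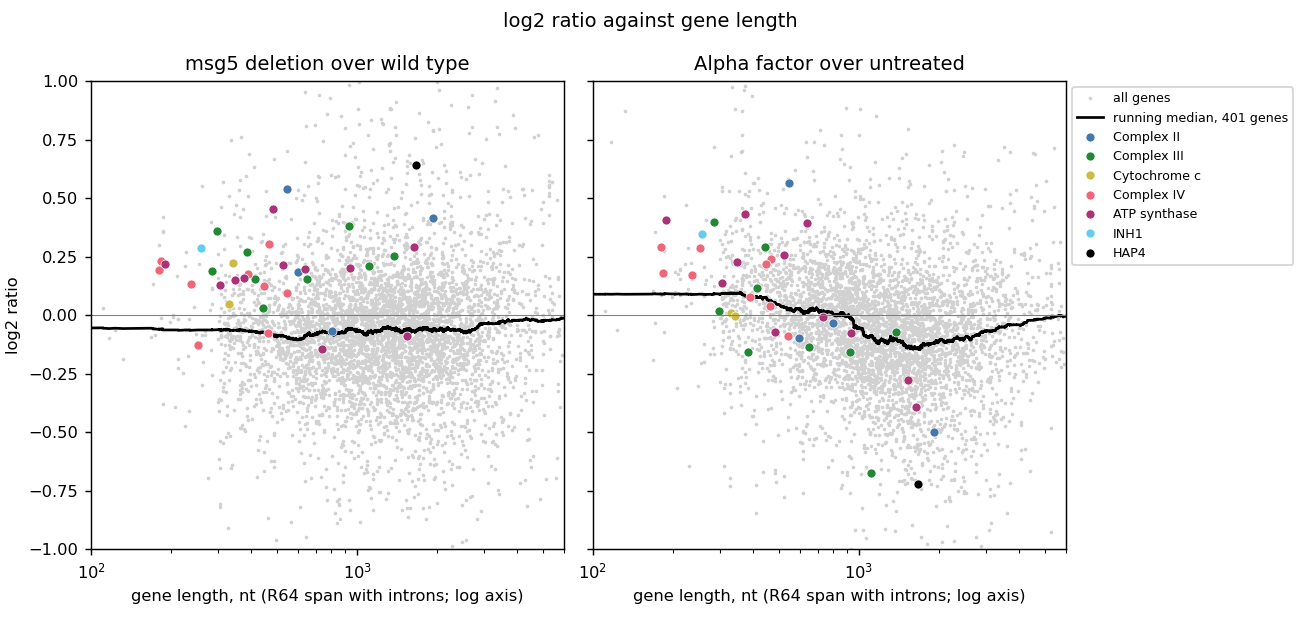
Log2 ratio (y axis) against gene length on a log axis (x axis) for the 37 respiratory genes, coloured by complex, and for all genes (grey), in the deletion (left) and with alpha factor (right). The black line is the running median of all genes in order of length; values beyond 1 in either direction and genes at the ends of the length range are not drawn. On the right the members fall from a median of 0.20 for those of up to 471 nt to -0.45 for those of over 1041 nt, and on the left the medians of the 3 length classes, 0.17, 0.20 and 0.27, lie above 0.

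Genes that work with the chain shared the values of its subunits in part. In the deletion, 49.8% of all genes exceeded the median of all genes, -0.07. It was exceeded by 8 of 10 genes of the tricarboxylic acid cycle, 6 of 6 for other electron entry points and 6 of 8 transcription factors. The counts were 22 of 35 for assembly factors, 6 of 11 for coenzyme Q synthesis, 17 of 61 for mitochondrial ribosomal proteins and 1 of 7 for carriers. The tricarboxylic acid cycle, which feeds the chain with NADH and succinate, had a median of 0.09 over 10 genes in the deletion and of -0.11 with alpha factor. KGD1, of alpha-ketoglutarate dehydrogenase, was highest at 0.43 and, with the alpha factor values taken as treated over untreated, at 0.29, and the lowest were LSC1, of succinyl-CoA ligase, at -0.36 and IDH1, of isocitrate dehydrogenase, at -0.26. None of the 10 reached 1.5-fold in either comparison, where 1.46% to 3.15% of all genes did in each direction.

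Yeast has no complex I, and NADH enters through dehydrogenases of a single polypeptide. The 6 genes for this and other entry points had medians of 0.10 and 0.02, from -0.05 for NDE2 to 0.33 for NDI1 in the deletion and from -0.14 for NDI1 to 0.28 for NDE1 with alpha factor. The list of 8 transcription factors of respiration and oxygen ran from -0.20 for ROX1 to 0.40 for HAP1, the heme-responsive activator, in the deletion. With alpha factor 6 were measured, from -0.27 for ROX1 to 0.20 for HAP2. HAP4, which was not in that list, lay outside its range in both comparisons.

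Coenzyme Q synthesis had a median of -0.00 over 11 genes in the deletion, where COQ1 was the highest at 0.18. COQ2, which joins the ring to its side chain, stood at -1.15 and was the only gene of that list past 1.5-fold. This was 1 of 11 genes, where 3.08% of all genes were 1.5-fold lower. With alpha factor the median was -0.19, from -0.30 for CAT5 to 0.19 for COQ4. Both medians lay below those of the respiratory genes, and the difference was not tested.

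Assembly factors of complexes II to IV and the ATP synthase had a median of -0.02 over 35 of 44 genes in the deletion and of 0.08 over 34 with alpha factor. In the deletion 2 of 35 were 1.5-fold lower, where 3.08% of all genes were. These were ATP10 of ATP synthase assembly at -0.80 and CBP3 of complex III assembly at -0.60. CYC3, the heme lyase of cytochrome c, was highest at 0.37. With alpha factor the list ran from -0.51 for ATP11, an F1 chaperone, to 0.53 for PET117, of complex IV assembly. Carriers and proteins bound to the complexes had medians of -0.08 over 7 genes and -0.20 over 6, from -0.16 for AAC1 to 0.22 for STF2 in the deletion and from -0.42 for PET9, the main ADP/ATP carrier, to 0.21 for MIR1, the phosphate carrier, with alpha factor.

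Mitochondrial ribosomal proteins, which are needed to make the mitochondrially encoded subunits, had a median slightly below that of all genes in the deletion. It was -0.14 over 61 genes, against -0.07 for all genes and 0.19 for the respiratory genes. Of the 61, 6 lay above 0, where 36.8% of all genes did. Their values ran from -0.69 for RSM19 to 0.35 for MRPL44. With alpha factor the median was -0.00 over 64 genes, from -0.67 for MRPS28 to 0.53 for MRPL50. RSM19 and MRPS28 were the only members of that list past 1.5-fold, each in the comparison named. Of all genes, 3.08% were 1.5-fold lower in the deletion and 3.15% with alpha factor.

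**Figure D5:**
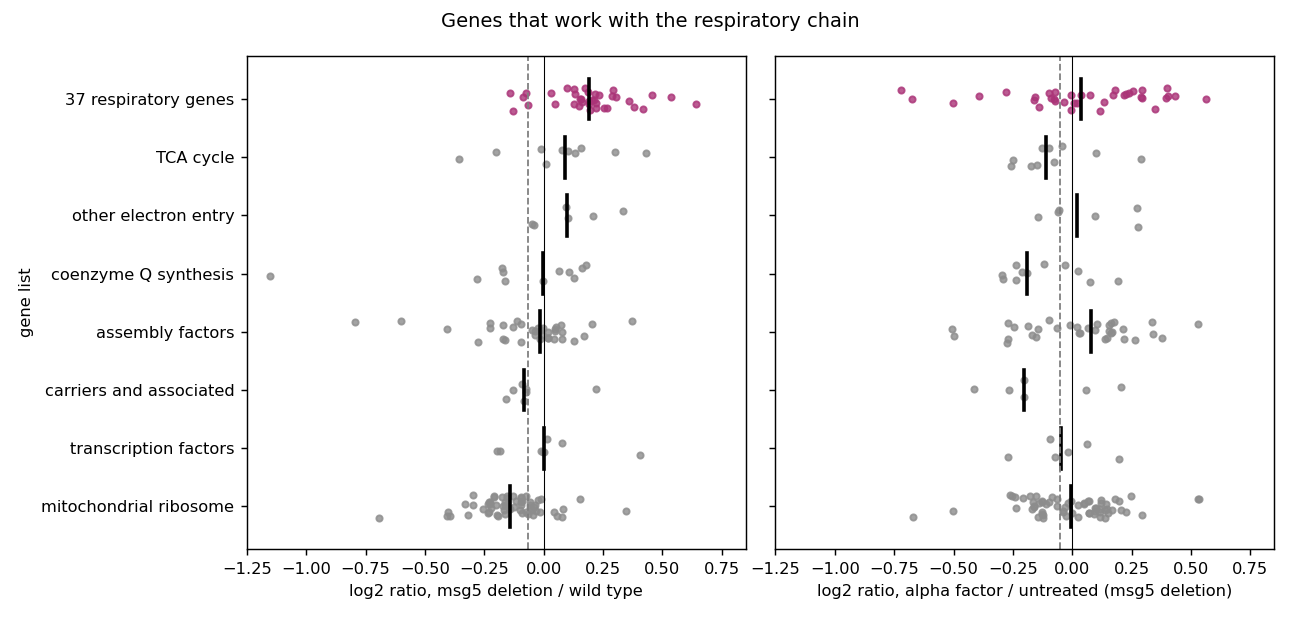
Log2 ratio (x axis) of single genes in the respiratory set and 7 related lists (y axis), in the deletion (left) and with alpha factor (right). Each point is 1 gene, the black bar is the median of a list and the dashed line the median of all genes. On the left the bar of the respiratory genes is at 0.19, that of the tricarboxylic acid cycle at 0.09 and that of the mitochondrial ribosome at -0.14.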

How the data were processed

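Two-colour array values of 2 comparisons were used. The deposited values are log2 ratios, 1 per feature and comparison, which the authors condensed from 4 arrays each, scanned with GenePix Pro 5.0 per the labels. The labels state no normalization, filter or genome build. The base of the logarithm was inferred: every one of 5310 deletion values (100%) equals, within 5.5e-05, the base 2 logarithm of a ratio rounded in steps of 0.001, a match that chance would give for 7.52%. With alpha factor base 2 is less certain: of 705 values below -0.3, 79.1% lay on a grid of 0.0001, where chance gives 54.3%.

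Of 6207 gene features, 5654 were named from the R64 table by locus tag and 57 by a synonym; features of a gene were averaged (Python 3.11.15, pandas 2.3.3, SciPy 1.17.1). Medians and counts are descriptions without a test, since each comparison is 1 sample. The members and lists were chosen with earlier results of these data known. All measured members are named; of related lists, the highest and lowest gene and any gene past 1.5-fold. Adjustments for file order and gene length were tested on simulated data. A planned search of promoters for motifs was not run.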

Additional observations from a re-analysis of the deposited data

How the results depend on the processing

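Of 121 recomputed values, 99 moved by at most 0.1 in log2, or within 1.5 times for counts; among these, alpha factor medians near 0 could change sign. The members' median in the deletion ran from 0.19 to 0.27 and its difference from other genes from 0.25 to 0.27, and 32 or 33 members exceeded the median of all genes. With alpha factor 18 to 24 did, and the members' median, 0.04, ran from -0.04 with the sign turned to 0.11, and was -0.01 with length group medians subtracted. The cytochrome c median of 0.00 ran from -0.09 to 0.05. The difference from other genes there, 0.09, was -0.0123 after subtraction of length group medians and -0.089 with the sign turned.

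The count of members 1.5-fold higher in the deletion, 1, was 2 after centring, after adjustment for file order and after both length adjustments, the running one of which was chosen after seeing the data, and was 10 at 1.2-fold and 0 at 2-fold. With alpha factor the count of 1.5-fold higher members, 0, was 1 after centring, 9 at 1.2-fold, 3 if the values are natural logarithms, 14 if base 10 and 2 with the sign turned. The count of lower members, 2, was 0 with length group medians subtracted, 1 with the running length median, 5 at 1.2-fold, 0 at 2-fold, 5 if base 10 and 0 with the sign turned. HAP4 with alpha factor was -0.58 under either length adjustment and 0.72 with the sign turned. Where values are the deposited ones minus a median, or another base or fold, the moves follow from that construction. No paired analysis was possible because each comparison is a single deposited column. Signal over background was not used here, so dim spots could not be told from bright ones.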

Other observations

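The features beside some members were looked up after the values had been seen. The R64 neighbours of HAP4, KTI12 and SLD2, had log2 ratios of -0.20 and 0.02 in the deletion and of 0.02 and 0.22 with alpha factor, so neither went with HAP4. ANB1, the hypoxic form of translation factor eIF5A and the neighbour of CYC1, stood at -0.62 in the deletion and 0.11 with alpha factor. COG5, on the other side of COX5A from MSG5, stood at -0.22 in the deletion. The feature YBL100C, whose systematic name adjoins that of ATP1 (YBL099W) on the opposite strand and which has no entry in the R64 table, stood at 0.23 in the deletion and -1.68 with alpha factor, where ATP1 was at -0.39.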
